A study of Mus musculus with 24 samples.

Results

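The TRAV12 family comprises the mouse TCRα variable segments named TRAV12, TRAV12D and TRAV12N. Family members were the TCRα sequences of all 24 tumors assigned to one of these segments, with no stop codon mark and at least 2 counts. A clonotype was a CDR3 amino acid sequence together with its V and its J segment, and 3028 of 35452 TCRα clonotypes belonged to the family. They rested on 4811 retained sequences and 470711 of 4769624 retained TCRα counts, and 1314 of the sequences sat at the limit of 2 counts. Another 13464 unmarked family sequences fell just outside it with a single count, and 11846 carried a mark.

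RNA came from whole CT26 tumors, a BALB/c colon carcinoma line (here the subclone CT26.CL25), grown in both flanks of 12 female BALB/c mice aged 7 to 9 weeks. In the time-matched mice (6, 12 and 14) both tumors were taken on day 13. In the other 9 mice 1 tumor was removed by surgery and the other was taken 11 days later. Of these 9, the time-separated mice (4, 17 and 19) carry no treatment in the labels and are called untreated here. Mice 3, 11 and 20 received decitabine, an inhibitor of DNA methyltransferases, at 0.5 mg/kg, and mice 7, 10 and 16 received it at 2 mg/kg, in both cases by intraperitoneal injection on 5 consecutive days starting 3 days after surgery. In the mice given decitabine the tumor removed by surgery was taken before the first dose. A value per mouse in these groups thus combines a tumor from before and a tumor from after treatment. The numbers 1 and 2 that the labels give to tumors state neither side nor time, so that differences between tumor 1 and tumor 2 carry no direction in time here. All groups bore the same transplanted line, and 3 mice stood behind each group.

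The TCRα chain is assembled in the thymus by joining 1 V segment to 1 J segment. The V segment encodes the CDR1 and CDR2 loops of the receptor, and the CDR3 loop spans the V to J junction, where bases are trimmed and added at random. The chain pairs with a TCRβ chain, which was not linked to it in these libraries. The D and N names mark copies of the TRAV12 segments in duplicated stretches of the locus. The reference annotation (C57BL/6J) lists 10 TRAV12 genes on chromosome 14, in the order TRAV12D, TRAV12N and TRAV12, each set with its members numbered upwards.

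A median of 37 V bases preceded the CDR3 over all family sequences, with 39 for TRAV12-1 and more for TRAV12N-2 (114), TRAV12D-3 (112) and TRAV12D-1 (127.5). Over the last 36 bases before the conserved cysteine codon the commonest sequence took only 2 forms among the 7 segments observed, and they are shown because most family sequences reached little further into the V segment. Capitals mark the bases that differ from TRAV12-1.

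TRAV12-1, TRAV12D-2 and TRAV12N-2: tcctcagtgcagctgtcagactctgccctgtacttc
TRAV12-2, TRAV12-3, TRAV12D-1 and TRAV12D-3: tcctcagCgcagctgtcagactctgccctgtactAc

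Agreement with the form given was lowest for TRAV12-1, where the most variable position matched in 56.6% of 2245 sequences, and was at least 97.0% at every position for TRAV12-2, TRAV12-3, TRAV12D-1 and TRAV12N-2. Within a tumor, 272 of 4382 combinations of CDR3 bases and J segment carried more than 1 family segment, and these combinations held 82.7% of the family counts. TRAV12N-2 shared 94.9% of its counts with another family segment and TRAV12D-3 shared 99.7%, against 15.3% for TRAV12-3 and 1.88% for TRAV12D-2. Segments with the same form of these bases thus differed in how often they were named together. In addition, 50 combinations, with 28.9% of the family counts, were also assigned to a segment outside the family. This was chiefly TRAV6-5, whose 56866 counts in such combinations equalled 12.1% of the family counts. The family as a whole was the unit of most comparisons below.

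TRAV12-1 and TRAV12-2 carried nearly all of the family. TRAV12-1 held 75.6% of family counts and 1875 clonotypes, and TRAV12-2 held 21.7% and 868 clonotypes. TRAV12-3 (143 clonotypes), TRAV12N-2 (59), TRAV12D-2 (58), TRAV12D-3 (14) and TRAV12D-1 (11) together made up the remainder. Sequences named TRAV12N-1 or TRAV12N-3 were not retained. TRAV12-1 ranged from 1.01% to 29.8% of the TCRα counts of a tumor with a median of 3.10%, and TRAV12-2 from 0.0892% to 15.3% with a median of 0.831%. TRAV12-3 was found in 23 of 24 tumors and stayed below 0.265% of counts. TRAV12N-2 was found in 20 tumors and reached 1.29% in tumor 2 of mouse 4, where it made up 19.6% of the family.

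The balance of the pair of main segments differed between tumors. TRAV12-1 made up 96.5% and 96.7% of family counts in the tumors of mouse 14 and 91.9% and 93.8% in those of mouse 17. TRAV12-2 exceeded it in tumor 2 of mouse 7, with 84.2% of family counts against 12.0%, in tumor 2 of mouse 19, with 59.3% against 36.3%, and in tumor 2 of mouse 12, with 56.0% against 42.8%.

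Next, the share of the family in the TCRα repertoire was compared between groups. Among the time-matched mice, mouse 6 had 3.03% of its counts in the family in tumor 1 and 3.62% in tumor 2. Mouse 12 had 8.22% and 7.58%, and mouse 14 had 30.8% in each. Among the untreated time-separated mice, mouse 4 had 7.31% and 6.58%, mouse 17 had 17.5% and 19.2%, and mouse 19 had 6.53% and 25.7%. At 0.5 mg/kg decitabine, mouse 3 had 2.57% and 2.93%, mouse 11 had 3.09% and 2.22%, and mouse 20 had 4.01% and 7.83%. At 2 mg/kg, mouse 7 had 5.60% and 8.40%, mouse 10 had 3.83% and 7.47%, and mouse 16 had 2.82% and 2.40%. The time-matched mice spanned nearly the whole range, so that this group overlapped each of the others. The retained TCRα total lay between 26623 and 846655 counts per tumor, which set exact 95% binomial intervals of 0.113 to 0.670 percentage points in width. These intervals cover counting error only.

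**Figure D1:**
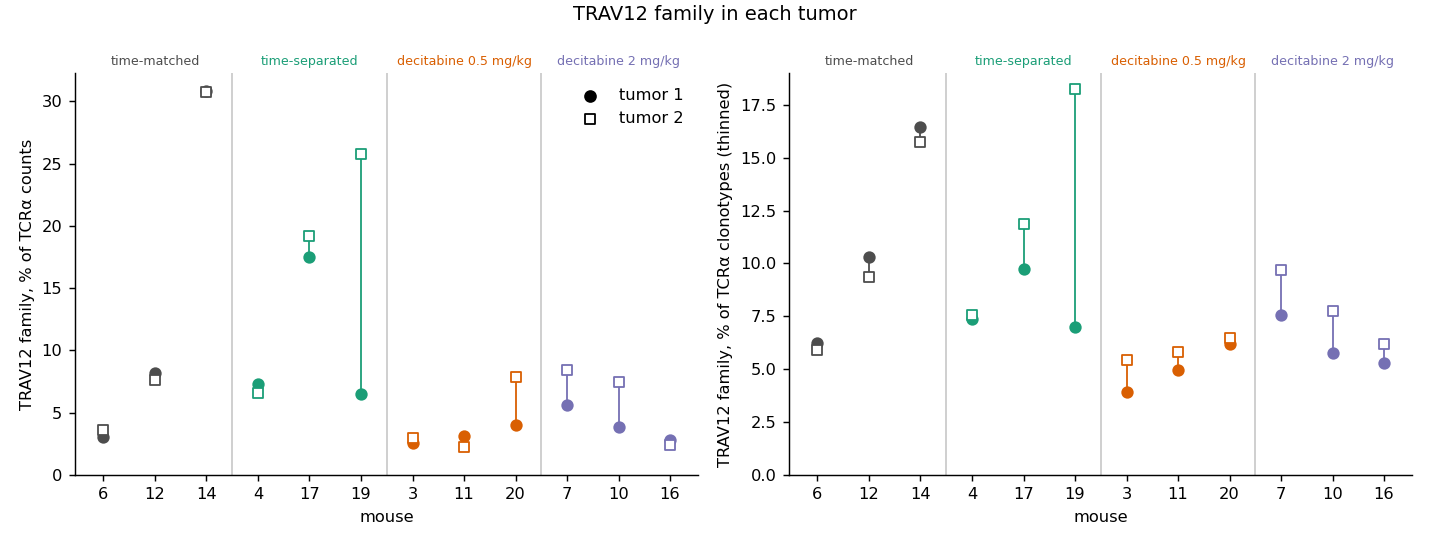
TRAV12 family share in each tumor by mouse and group, as percent of all TCRα counts (left) and as percent of TCRα clonotypes after thinning every tumor to 26623 counts (right). Circles are tumor 1 and squares tumor 2, joined within a mouse. Mouse 14 stood at 30.8% of counts in both tumors, and mouse 19 moved from 6.53% to 25.7% between its tumors.

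The mean over mice was 14.0% ± 14.7 (SD, n = 3) in the time-matched group and 13.8% ± 6.04 (n = 3) in the time-separated group, a difference of 0.204 percentage points (two-sided exact permutation test over mice, p = 1). Against all 9 time-separated mice (7.55% ± 5.79) the time-matched mean was 6.45 points higher (exact permutation p = 0.259, adjusted 0.322 over 9 group comparisons). Without mouse 14 the difference was -1.94 points against the 9 mice and -8.19 points against the 3 untreated ones, and without mouse 4 the latter was -3.22 points.

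The 3 mice given 0.5 mg/kg decitabine had a mean of 3.77% ± 1.86 and all lay below the time-separated mice, with a difference of -10.0 points. The exact permutation p was 0.1, the smallest that 3 against 3 mice allow, and 0.3 after adjustment. At 2 mg/kg the mean was 5.09% ± 2.25, the difference -8.72 points and the exact permutation p 0.2 (adjusted 0.307). Here mouse 7 of the treated group (7.00%) and mouse 4 of the untreated group (6.95%) overlapped. At both doses these means include the tumor removed before the first dose, so they do not compare treated with untreated tumors alone. In bulk tumor RNA a share depends on cell numbers and on receptor RNA per cell, both in the family and in the other clonotypes. These cannot be told apart.

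By clonotypes the family was less spread. After thinning each tumor to 26623 counts it made up 10.7% ± 5.07 of clonotypes in the time-matched mice and 7.60% ± 2.64 in the 9 time-separated mice (difference 3.06 points, exact permutation p = 0.205, adjusted 0.307). The difference was 0.342 points without mouse 14, 5.36 points without mouse 6 and 0.963 points when 1-residue variants of a larger clonotype were merged into it. Among all TRAV families TRAV12 ranked the fifth by mean share of clonotypes without thinning (8.52% ± 3.98, n = 12) and the fifth by mean share of counts (9.17% ± 8.50). The share of counts exceeded the share of clonotypes in 3 of 12 mice, namely 14, 17 and 19, and the mean difference was 0.644 points (exact sign-flip permutation test, p = 0.681, adjusted 0.681). The difference was -0.447 points without mouse 14, and it stayed above 0 without any other single mouse, with 0.0376 points without mouse 17 as the smallest of these. Both shares in this comparison used all retained counts, without thinning. The TRAV families of at least 1% of clonotypes whose share ran most alike over the 12 mice were TRAV5 (Spearman rho 0.26, Pearson r 0.12), TRAV9 (rho 0.16, r -0.06) and TRAV15 (rho 0.15, r close to 0). All 3 relations were weak. For TRAV5 r was 0.71 without the 2 mice farthest from the median, so that it rested on which mice were included.

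Segment by segment, edgeR's quasi-likelihood fit on counts summed per mouse tested 81 V segments, of which 6 were TRAV12 segments. None of the 81 (0%) was called at an adjusted p under 0.05 in any of the 4 comparisons. The fit had little power. In simulated counts with the spread estimated from these data, the 2 mg/kg comparison called 3 of 19 less used segments changed 8-fold. The absence of calls therefore does not show that no segment changed. At an unadjusted p under 0.05 there were 10 segments for time-matched against time-separated mice, 5 against all 9 time-separated mice, 11 for 0.5 mg/kg and 8 for 2 mg/kg decitabine against time-separated mice. DESeq2 called 1, 4, 0 and 2.

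TRAV12-1 had a log2 fold change of 0.30 (SE 1.06) for time-matched against time-separated mice, -1.89 (SE 1.10) for 0.5 mg/kg and -1.63 (SE 1.09) for 2 mg/kg decitabine. The first of these was -1.71 without mouse 14. TRAV12-2 had -0.89 (SE 1.13), -2.03 (SE 1.16) and -1.23 (SE 1.13). Without mouse 19 all 3 turned, to 1.44, 0.31 and 1.11, and the first was also above 0 with TMM (2.01), with DESeq2 (1.77) and on clonotypes per segment (0.29). For TRAV12N-2 the log2 fold change was -3.97 (SE 1.71) at 0.5 mg/kg, with an edgeR adjusted p of 0.349. None of these changes passed the test. Across all alternatives 2 fits called a family segment. DESeq2 called TRAV12-1 higher in the time-matched than in all 9 time-separated mice (log2 fold change 2.44, adjusted p = 0.0420), where edgeR gave 1.47 (SE 0.81, adjusted p = 0.574) and -0.54 without mouse 14. Without the filter on low counts, edgeR called TRAV12D-3 lower at 2 mg/kg (adjusted p = 0.0239). That segment had 724 counts in all, 583 of them in tumor 2 of mouse 19, and none in the mice given 2 mg/kg.

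The J partners of the family were then examined. TRAJ segments are numbered against the direction of the locus, so that high numbers lie nearest to the V segments. Family clonotypes used 44 TRAJ segments, and the 5 with the most clonotypes were TRAJ30 (341), TRAJ26 (300), TRAJ33 (292), TRAJ53 (240) and TRAJ9 (236), each clonotype counted once per mouse. By counts, each of these was large in a few mice. TRAJ30 held 70.3% of family counts in mouse 10, 61.6% in mouse 19 and 44.8% in mouse 17, and at most 3.82% in the other 9 mice. TRAJ26 held 45.3% in mouse 14 and at most 4.58% elsewhere.

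TRAJ33, best known as the partner of TRAV1 in mucosal-associated invariant T cells, held 39.3% of family counts in mouse 14, 26.7% in mouse 12 and 7.16% in mouse 6. These were the 3 time-matched mice, and the other 9 lay between 0 and 6.10%, a difference noticed in the data and not tested. TRAJ53 held 58.8% in mouse 7 and 39.3% in mouse 12. TRAJ9 held 39.7% in mouse 17, 32.6% in mouse 3, 29.1% in mouse 12 and 26.9% in mouse 11. Mouse 4 was led instead by TRAJ31 (42.8%) and TRAJ40 (30.7%), and mouse 20 by TRAJ18 (54.8%), a segment best known from the TRAV11 chain of invariant natural killer T cells.

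**Figure D2:**
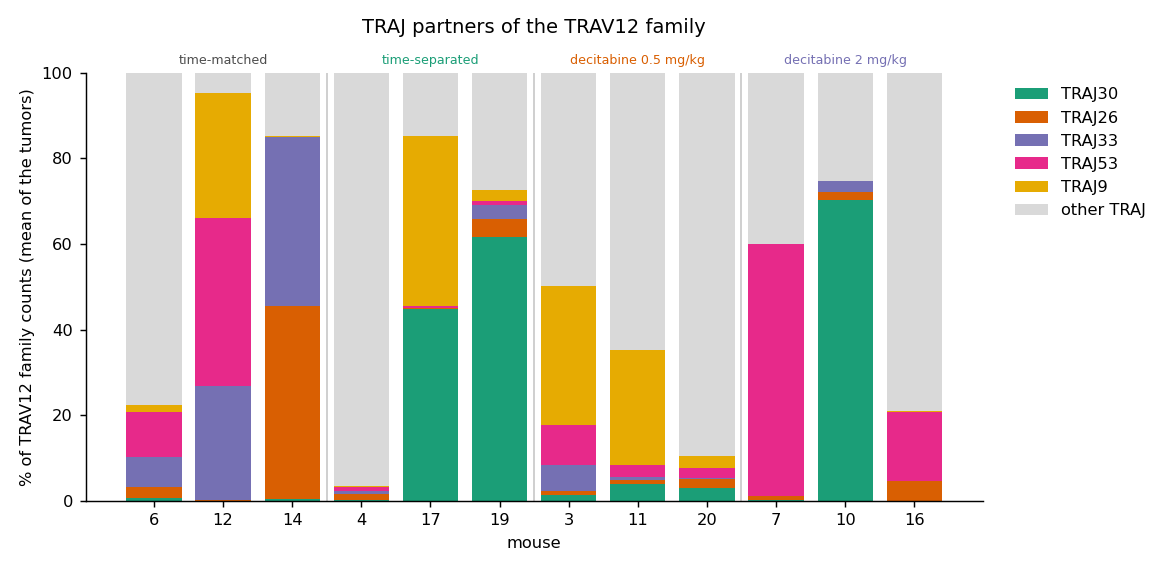
Percent of TRAV12 family counts carried by each TRAJ segment in each mouse, as the mean of its tumors, for the 5 TRAJ segments with the most family clonotypes and all others together. TRAJ30 filled 44.8% to 70.3% of the family in mice 17, 19 and 10, which belong to 2 groups.

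Within each mouse, the share of family clonotypes using a TRAJ segment was set against its share of the other TCRα clonotypes. By an exact sign-flip permutation test over 12 mice, with adjustment over the 44 segments, no segment (0%) was higher in the family and 5 segments (11.4%) were lower. Those 5 were TRAJ49 (2.54% of family against 6.08% of other clonotypes), TRAJ15 (1.23% against 4.33%), TRAJ17 (1.04% against 2.88%), TRAJ34 (1.25% against 3.03%) and TRAJ27 (1.04% against 1.96%), all with an adjusted exact permutation p of 0.00859. TRAJ15 was lower in 12 of 12 mice and the other 4 in 11 of 12. TRAJ9 was 5.03 points higher in the family on average but in only 7 of 12 mice (exact permutation p = 0.0425, adjusted 0.234), and TRAJ30 was higher in 4 of 12. With a minimum of 10 counts TRAJ15 alone was called. With 1-residue variants merged TRAJ15, TRAJ27 and TRAJ49 were still called, TRAJ17 and TRAJ34 were not, and TRAJ50 was added.

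The mean TRAJ number was 32.6 ± 4.25 in the family and 33.2 ± 2.04 in the other clonotypes (difference -0.651, exact permutation p = 0.589, adjusted 0.681). Leaving out 1 mouse moved this difference between -1.43 (without mouse 7) and -0.137 (without mouse 17), and a minimum of 10 counts gave -1.67 (exact permutation p = 0.0889, adjusted 0.207). The mean CDR3 length was 13.57 ± 0.288 against 13.65 ± 0.124 residues (difference -0.0819, exact permutation p = 0.375, adjusted 0.681), and the difference was -0.145 without mouse 14 and -0.0373 without mouse 19. The CDR3 of 80.0% of family clonotypes began with the residues CAL and that of 54.1% with CALS, against 15.4% and 4.25% of the other clonotypes, as the V end encodes the first residues.

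The largest family clonotype of each mouse was found in both of its tumors. In 9 mice it used TRAV12-1 and in 3 TRAV12-2. The CDR3 bases of the time-matched leaders, and of the clonotype that came next in mouse 14, are given first, since they show how different the leading chains of mice in 1 group were.

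TRAV12-1 and TRAJ40, mouse 6: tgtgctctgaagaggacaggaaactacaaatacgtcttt
TRAV12-2 and TRAJ53, mouse 12: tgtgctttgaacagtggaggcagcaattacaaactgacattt
TRAV12-1 and TRAJ26, mouse 14: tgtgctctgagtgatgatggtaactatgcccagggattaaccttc
TRAV12-1 and TRAJ33, mouse 14: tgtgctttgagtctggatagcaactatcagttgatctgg

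In mouse 6 the TRAJ40 clonotype held 0.343% and 0.409% of TCRα counts. In mouse 12 the TRAJ53 clonotype held 2.54% and 2.86%. In mouse 14 the TRAJ26 clonotype held 14.1% and 11.5%, which made it the TCRα clonotype of rank 2 and 3, and the TRAJ33 clonotype held 9.83% and 13.0%. All 3 leaders stayed within 1.23-fold between the tumors.

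In the 9 time-separated mice the ratio between tumors reached from 1.11-fold to 362-fold, and it exceeded 2-fold in 7 of 9. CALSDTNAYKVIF with TRAV12-1 and TRAJ30 in mouse 17 was the steadiest, with 7.93% and 7.12%. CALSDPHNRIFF with TRAJ31 in mouse 4 held 2.90% in tumor 1 and 1.50% in tumor 2 (a change of -1.40 points). Of the family clonotypes of these 9 mice that were smaller in tumor 2 it changed most. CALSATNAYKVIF with TRAV12-2 and TRAJ30 in mouse 19 held 1.35% and 14.3% and was the TCRα clonotype of rank 6 and rank 1. Its difference of 12.9 points was the largest among the clonotypes that were larger in tumor 2, and with the tumors turned it would be the largest decrease.

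In the mice given 0.5 mg/kg decitabine, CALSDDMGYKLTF with TRAJ9 held 0.135% and 1.52% in mouse 3, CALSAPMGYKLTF with TRAJ9 held 0.00252% (5 counts) and 0.912% in mouse 11, and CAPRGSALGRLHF with TRAJ18 held 0.845% and 6.28% in mouse 20. At 2 mg/kg, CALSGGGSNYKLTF with TRAV12-2 and TRAJ53 held 0.918% and 5.81% in mouse 7, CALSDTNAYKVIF held 1.80% and 6.24% in mouse 10, and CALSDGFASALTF with TRAJ35 held 0.498% and 0.195% in mouse 16. The leaders of 5 of these 6 mice were larger in tumor 2.

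The clonotype of the next rank had no counts in 1 tumor of 3 mice, all given decitabine. In mouse 16, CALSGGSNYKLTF with TRAV12-1 and TRAJ53 had 0 and 915 counts, and in mouse 3 a clonotype of TRAV12-2 and TRAJ37 had 584 and 0 counts. With 3 counts as the limit of detection these differed by at least 487-fold and at least 165-fold. The one in mouse 7, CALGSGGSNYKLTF with TRAV12-1 and TRAJ53, held more of tumor 1 than the leader of that mouse, with 2711 counts (1.22%), and had none in tumor 2. It was at least 108-fold lower there. That tumor had the fewest counts of all, 26623.

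**Figure D3:**
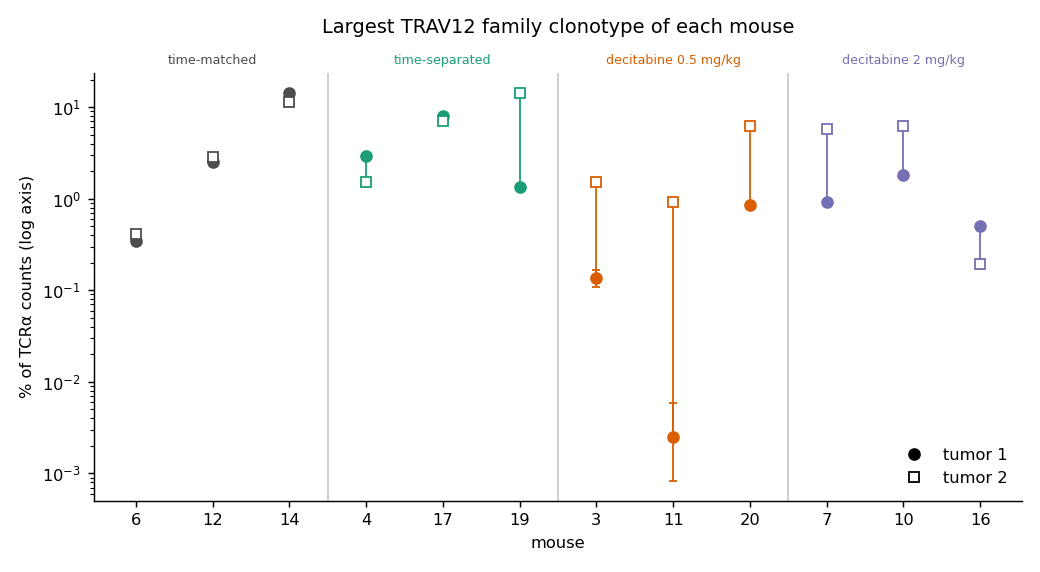
Share of TCRα counts of the largest TRAV12 family clonotype of each mouse in tumor 1 (circles) and tumor 2 (squares) on a log axis, with exact 95% binomial intervals. The time-matched mice differed by at most 1.23-fold between tumors, while mouse 11 differed 362-fold.

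Overlap between the tumors of a mouse was then measured within the family by the Morisita-Horn index, which is 0 when no clonotype is shared and 1 when the tumors hold the same clonotypes at the same abundance. Every tumor was thinned to 26623 TCRα counts and 20 draws were averaged. The index was 0.885, 0.965 and 0.973 in the time-matched mice 6, 12 and 14. The untreated time-separated mice 4, 17 and 19 had 0.845, 0.915 and 0.599. The decitabine mice had 0.172 (mouse 3), 0.137 (mouse 11) and 0.493 (mouse 20) at 0.5 mg/kg, and 0.418 (mouse 7), 0.850 (mouse 10) and 0.315 (mouse 16) at 2 mg/kg. Mouse 17 (0.915) lay above mouse 6 (0.885), and the other 8 time-separated mice lay below all time-matched mice.

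The time-matched mean of 0.941 ± 0.0490 (n = 3) exceeded that of the 9 time-separated mice, 0.527 ± 0.295, by 0.414 (exact permutation p = 0.0409), which did not hold after adjustment over 9 comparisons (adjusted p = 0.184). Against the 3 untreated time-separated mice the difference was 0.155 (exact permutation p = 0.2, adjusted 0.307), and it was 0.0610 without mouse 19. The private share, the percent of family counts in clonotypes of 1 tumor alone, was 11.9% ± 13.8 in the time-matched and 34.6% ± 14.3 in the 9 time-separated mice (difference -22.6 points, exact permutation p = 0.0318, adjusted 0.184). The difference in family share between the tumors of a mouse was 0.428 ± 0.323 points in the time-matched mice and 3.73 ± 5.96 in the others (difference -3.30 points, exact permutation p = 0.286, adjusted 0.322). Without mouse 19, whose tumors differed by 19.2 points, the difference between the groups was -1.37 points.

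The same index was computed over all other TCRα clonotypes of the same mice for comparison. Over the 12 mice the family did not stand apart, with a mean difference of -0.0588 in the index (exact permutation p = 0.595, adjusted 0.595) and of 7.05 points in the private share (p = 0.216, adjusted 0.432, same test). The sign was not the same in every group. In the untreated time-separated mice the family overlapped more than the other clonotypes, 0.845 against 0.371 in mouse 4, 0.915 against 0.715 in mouse 17, and 0.599 against 0.107 in mouse 19. In the mice given 2 mg/kg decitabine it overlapped less, 0.418 against 0.898 in mouse 7, 0.850 against 0.880 in mouse 10, and 0.315 against 0.826 in mouse 16.

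At 0.5 mg/kg the family index was below that of the other clonotypes in mice 3 (0.172 against 0.572) and 11 (0.137 against 0.711) and above it in mouse 20 (0.493 against 0.314). In the time-matched mice the difference stayed between -0.0808 and 0.0510. The difference of 0.729 between the untreated mice and those given 2 mg/kg had an exact permutation p of 0.1, the smallest possible. After thinning, the family counts behind these values ranged from 592 to 2236 per tumor in the decitabine mice and from 1738 to 6852 in the untreated time-separated mice. With the family and the other clonotypes of every tumor each thinned to 1637 counts the difference was 0.732.

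**Figure D4:**
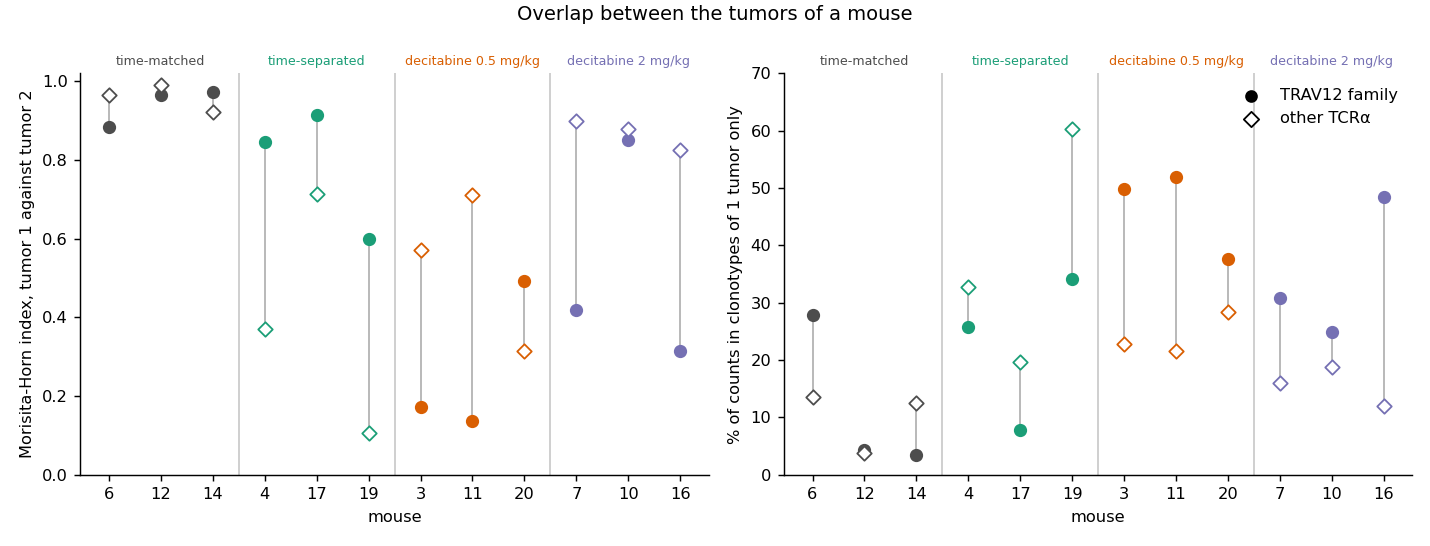
Overlap between tumor 1 and tumor 2 of each mouse for the TRAV12 family (filled circles) and for all other TCRα clonotypes (open diamonds), as the Morisita-Horn index (left) and as the percent of counts in clonotypes of 1 tumor alone (right). Filled circles lie above the diamonds on the left in mice 4, 17 and 19 and below them in mice 7, 10 and 16.

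Recurrence of family clonotypes between mice was rare overall. Of the 3028 clonotypes, 2816 (93.0%) were found in 1 mouse, 145 in 2, 52 in 3 and 15 in 4 or more. Of the 15, 9 used TRAJ30, and 7 of these lay within 1 residue of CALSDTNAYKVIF (itself included). TRAJ30 was used by 31.1% of the clonotypes found in 2 or more mice and by 5.65% of those found in 1. These counts were made without merging 1-residue variants, so neighbours of an abundant shared clonotype were counted separately. The share of a mouse's clonotypes that were also found in another mouse was 18.4% ± 10.9 in the family and 21.0% ± 3.12 among the other clonotypes (difference -2.62 points, lower in 9 of 12 mice, exact permutation p = 0.402, adjusted 0.681). It was -4.91 points without mouse 10 (exact permutation p = 0.0449, adjusted 0.180), -1.35 points without mouse 14 and -4.69 points with a minimum of 10 counts. It was highest in mouse 10, at 40.9% of family clonotypes.

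A pair of clonotypes was found in 7 mice each. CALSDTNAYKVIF with TRAV12-1 and TRAJ30 was the largest family clonotype in mice 10 and 17 and the next largest in mouse 19. The bases behind it are shown because the same nucleotide sequence recurred in mice of different groups. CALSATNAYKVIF, the leader of mouse 19, is set beside them. Capitals mark the 25 bases at the 3′ end that all 3 share.

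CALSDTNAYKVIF, mice 4, 10, 14, 17 and 19: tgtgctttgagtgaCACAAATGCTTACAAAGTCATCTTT
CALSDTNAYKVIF, mouse 20: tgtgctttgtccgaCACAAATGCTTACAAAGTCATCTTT
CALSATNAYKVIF, mouse 19: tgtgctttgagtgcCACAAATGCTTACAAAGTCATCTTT

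Counted from the first base of the CDR3, the main sequence of mouse 20 differed from that of mice 10, 17 and 19 by A10T, G11C and T12C, which leaves the protein unchanged. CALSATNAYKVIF differed by A14C. In mice 10, 17 and 19 the first sequence made up 99.4%, 98.3% and 99.1% of the counts of its clonotype. Beside the shares given above for mice 17 and 10, the clonotype held 0.363% and 6.64% of TCRα counts in mouse 19. Mouse 20 had 0.0887% and 0.253%. It was scarce in mouse 14 (3 and 26 counts), in mouse 7 (20 and 0 counts, with another nucleotide sequence) and in mouse 4 (2 and 0 counts). Whether such low counts came from the tumor itself or from sequence carried over between libraries was not tested. The same CDR3 with TRAJ30 was given another V name in part of the counts, for example TRAV12N-2 in 2.29% in mouse 17 and TRAV6-5 in 3.44% in mouse 19. In mice 3, 6 and 16 it was seen with a segment outside the family alone, at 2, 9 and 17 counts.

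The other clonotype found in 7 mice used TRAV12-1 and TRAJ32 and had 2 nucleotide forms, which differed by T7C. Capitals mark the shared end.

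TRAV12-1 and TRAJ32, mice 7, 14, 16, 17 and 19: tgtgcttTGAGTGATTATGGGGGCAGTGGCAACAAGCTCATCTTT
TRAV12-1 and TRAJ32, mice 3 and 12: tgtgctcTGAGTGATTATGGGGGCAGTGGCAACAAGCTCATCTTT

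It stayed small everywhere, at most 0.0784% of TCRα counts (tumor 1 of mouse 14), and was found in both tumors of mice 14 and 17 only. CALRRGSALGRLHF with TRAJ18 was found in 6 mice with 3 main sequences, at no more than 0.0344%, and in 1 tumor of each. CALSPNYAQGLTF with TRAV12-2 and TRAJ26 and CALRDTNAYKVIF with TRAV12-1 and TRAJ30 were each found in 5 mice, at no more than 0.0781% and 0.0303%. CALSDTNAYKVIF was thus the only one of the 5 most widely found clonotypes to reach 1% of counts in any tumor.

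The TRAJ9 clonotypes that were largest or next largest in 4 mice were not the same receptor chain, though they ended alike. Capitals mark their shared end.

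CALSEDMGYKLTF, mouse 17: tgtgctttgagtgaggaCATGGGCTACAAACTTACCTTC
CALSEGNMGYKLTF, mouse 12: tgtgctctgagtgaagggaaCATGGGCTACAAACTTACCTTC
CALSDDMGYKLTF, mouse 3: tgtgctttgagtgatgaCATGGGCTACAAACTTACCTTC
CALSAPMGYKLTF, mouse 11: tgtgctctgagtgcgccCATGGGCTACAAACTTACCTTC

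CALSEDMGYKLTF held 4.35% and 8.75% of TCRα counts in mouse 17, and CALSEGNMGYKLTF held 2.68% and 1.70% in mouse 12. Family clonotypes with TRAJ9 and this ending, a pattern chosen after the values were seen, made up 38.7% of family counts in mouse 17, 31.7% in mouse 3, 28.5% in mouse 12 and 23.4% in mouse 11, and at most 2.58% in the other 8 mice.

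The Morisita-Horn index of the family between tumors of different mice had a median of 4.98e-05 over 264 pairs of tumors. It exceeded 0.05 in 14 pairs, and 12 of these were all the pairs among mice 10, 17 and 19, which ranged from 0.102 to 0.853. The highest value, 0.853, linked tumor 1 of mouse 17, which was untreated, with tumor 1 of mouse 10 of the 2 mg/kg group. Without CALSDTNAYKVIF the highest index among these 3 mice was 0.0125, and over all pairs it was 0.0194.

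**Figure D5:**
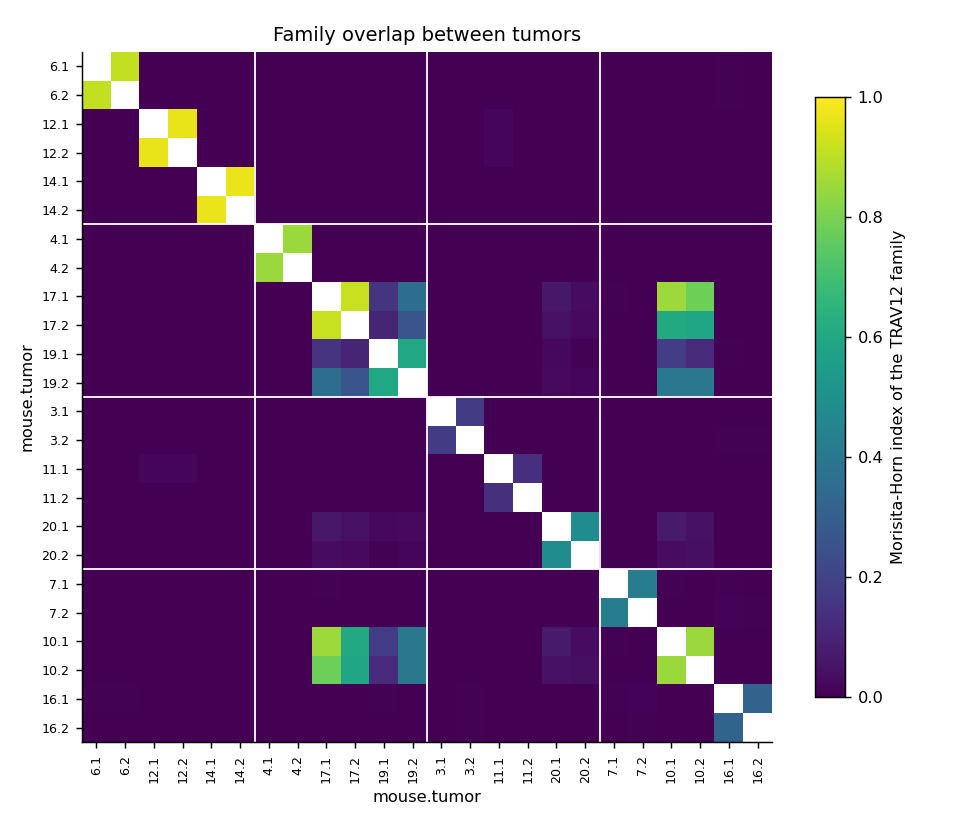
Morisita-Horn index of the TRAV12 family between all pairs of tumors, from all retained counts, ordered by group (time-matched, time-separated, decitabine 0.5 mg/kg, decitabine 2 mg/kg) with white lines between groups and the diagonal left blank. Away from the pairs of 1 mouse, the bright cells join mice 10, 17 and 19, between 0.102 and 0.853.

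Many family clonotypes lay close to a larger one. When a clonotype was merged into another of the same tumor, V family, TRAJ and length that differed by 1 residue and had at least 20 times its counts, a median of 40.7% of the family clonotypes of a tumor (range 19.1% to 75.3%) and 42.4% of the others (29.7% to 65.2%) were taken up. Whether these neighbours were errors of amplification or separate cells was not tested.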

How the data were processed

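TCRα and TCRβ libraries with unique molecular identifiers were made from whole-tumor RNA, and the authors called sequences with the Cogent NGS Immune Profiler. The deposited TCRα tables give counts per sequence, with V and J segment, CDR3, V-to-CDR3 sequence and a mark for stop codons. The study's methods call these counts reads. The genome build is not given in the sources used here. TCRβ tables were not used.

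Sequences without a mark and with at least 2 counts were kept, as in the study's methods. Clonotypes were CDR3 residues with V and J segment. Shares used all retained counts. Group comparisons of clonotype shares, Morisita-Horn index and private share used tumors thinned to 26623 counts (20 draws, seed 20). Ranks of families, comparisons of the family with other clonotypes in TRAJ, length and recurrence, and its share of counts against its share of clonotypes used all retained counts. A mouse entered as the mean of its tumors, and groups were compared by two-sided exact permutation tests over mice, with Benjamini-Hochberg adjustment over 9 comparisons, and over 4 for family against other clonotypes, by sign flips over 12 mice. The TRAJ tests and the index of the other clonotypes were added after the data were seen. V segments were tested with edgeR 4.0.16 (quasi-likelihood, retained totals as library sizes, filterByExpr), with DESeq2 1.42.0 as an alternative, in R 4.3.3. The other steps ran in Python 3.11.15 with numpy 2.4.6, scipy 1.17.1 and pandas 2.3.3, and were checked on simulated data. Names of all 7 segments matched RefSeq genes (GRCm38.p6).

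Named segments were all TRAV12 segments retained. Named TRAJ segments were the 5 with most family clonotypes, with TRAJ30 and TRAJ33. Named clonotypes were the largest of each mouse, the largest rise and fall from tumor 1 to tumor 2 as numbered, and the 5 found in most mice. Other TRAJ segments and the clonotypes of the next rank were named after their values were seen. Other V families were the 3 of highest Spearman correlation. Members and lists were chosen with earlier results of these data known. All p-values take the mouse as the unit. A permutation p-value is the share of reassignments of mice, or of sign flips, that give a difference at least as large.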

Additional observations from a re-analysis of the deposited data

Results flagged for a closer look

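The family share of mouse 19 differed by 19.2 percentage points between its tumors (6.53% and 25.7%), which lay far from the other 8 time-separated mice. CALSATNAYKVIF and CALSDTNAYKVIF together held 1.72% of counts in its tumor 1 and 20.9% in its tumor 2. Its gap to the nearest mouse was 0.817 of the range, against a limit of 0.493 that chance passes in about 1 of 20 groups. Both ends of 9 measures were examined, and no other value passed the limit.

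Over 6 measures, 5 of the family against the other TCRα clonotypes and 1 of its share of counts against its share of clonotypes, 36 differences between groups were looked at, each 3 mice against 3, where the smallest exact permutation p is 0.1. In 4 of them every mouse of one group moved opposite to every mouse of the other, each with an exact permutation p of 0.1. The mean TRAJ number of the family minus that of other clonotypes was -4.80 in the time-separated mice and 4.55 at 2 mg/kg decitabine, a difference of -9.35. With 1-residue variants merged it was -4.53 and no longer opposite in every mouse. The Morisita-Horn index of the family minus that of the others was 0.389 in the time-separated mice and -0.340 at 2 mg/kg, a difference of 0.729, and 0.855 without the largest family clonotype of each mouse.

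The private share of the family minus that of the others was -15.0 points in the time-separated mice, 22.2 points at 0.5 mg/kg and 19.1 points at 2 mg/kg, so that the differences were -37.1 and -34.0 points. With the family and the others thinned to 1637 counts each they were -33.4 and -32.8 points, with 2 of 3 mice of either dose above 0. Without the largest family clonotype of each mouse the time-separated value was -4.44 points, and with 1-residue variants merged it was -12.7 points. In both cases 1 of the 3 time-separated mice lay above 0, so that the groups were no longer opposite in every mouse, while the differences were -41.4 and -43.9 points in the first case and -36.6 and -31.7 points in the second. The family counts after thinning moved with these groups, from 1738 to 6852 per tumor in the time-separated mice against 592 to 2236 in the decitabine mice.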

How the results depend on the processing

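For the exact tests, 220 of 225 alternatives kept the direction and the side of the threshold. The share of counts minus the share of clonotypes became -2.72 without the largest family clonotype of each mouse and passed the threshold (exact permutation p = 0.00488, adjusted 0.0195), a direction that this removal favours, since it takes many counts and 1 clonotype from the family and nothing from the others. The same removal moved the difference in family share at 0.5 mg/kg to -6.43 points, the gap between tumors to -0.799 points, the Morisita-Horn difference from the untreated mice to 0.267 and the private share to -35.1 points. Leaving out each mouse in turn, the family share of counts, time-matched minus time-separated, ranged from -8.19 to 5.54 points, that against all 9 time-separated mice from -1.94 to 11.8 points, and the share of counts minus the share of clonotypes from -0.447 to 0.975 points. All 3 negative ends came without mouse 14, and the first was also negative without mouse 4 (-3.22).

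The number of V segments called, 0 in each comparison, was 1 with TMM, 1 with DESeq2 and 2 without the count filter for time-matched against time-separated mice, 4 with TMM and 4 with DESeq2 against all 9 time-separated mice, and 2 with DESeq2 and 4 without the filter for 2 mg/kg. Leaving out each mouse gave 0 to 1, 0 to 0 and 0 to 0 in these comparisons and 0 to 2 for 0.5 mg/kg, with the calls made without mouse 19. The number of TRAJ segments called fell from 5 to 1 with a minimum of 10 counts was 4 with 1-residue variants merged, of which 3 were among the 5, and was 5 to 6 without each mouse. The cause was not tested. No paired analysis was possible between groups because they share no mouse numbers. The depth of the family, 1637 to 92436 counts per tumor, limits what can be seen of small clonotypes.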
